A study of Betula luminifera with 4 samples.

Results

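The sequences described here are the predicted microRNAs (miRNAs) of the birch Betula luminifera that carry no known miRNA name. They are all distinct sequences whose deposited name starts with blu-miR, and there were 59 of them among the 215 distinct sequences of the small RNA table. The other 156 sequences carry a known miRNA name. The choice used the name alone and no measured value.

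The study asked how small RNAs of birch roots and shoots differ between phosphate supply and phosphate starvation. All plants were clone G49#, raised in tissue culture, 2 months old at planting and grown in sand. The 4 groups were CK root, LP root, CK shoot and LP shoot (the plots write the tissue before the treatment). CK plants received 1.25 mM KH2PO4, and LP plants received 0 mM, with potassium balanced by K2SO4. Shoot RNA combined stem and leaf. The study used 54 plants in 3 blocks of a block design, but the labels tie no library to a block and each group has 1 library of single reads of 36 nt. No difference below therefore has a replicate check, no test between groups was possible, and intervals cover counting error of reads only. PCR copies of 1 molecule are counted as separate reads, so the intervals can be too narrow even for counting molecules. All plants were 1 clone. In bulk RNA, fewer cells of a type and less RNA per cell cannot be told apart, and a table of small RNAs holds no messenger RNA marker by which the tissue labels could be checked.

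Plant miRNAs are cut by Dicer-like enzymes from the arms of a hairpin transcript, which gives a duplex of a 5p and a 3p strand. Argonaute proteins then hold 1 strand and pair it with target transcripts. In Arabidopsis, strands of 21 nt that start with U are mostly held by AGO1, which cuts or represses messenger RNAs, while strands of 24 nt that start with A are typical of small RNAs made by DCL3 and held by AGO4, which direct DNA methylation and are often read from both strands of a locus. Under phosphate starvation, plant miRNAs such as miR399 act in the control of phosphate uptake.

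The sequences that the values below turn on are printed first, 5′ to 3′ and in the DNA letters of the deposited table, with the seed (bases 2 to 8) in capitals. No 2 of the 59 sequences shared a seed, and none shared a seed with a named sequence. Some members were still alike over most of their length, such as blu-miR1-5p and blu-miR2-5p, with 1 difference over 21 nt. The most abundant hairpins of 21 nt were these:
blu-miR7-3p: tCGGTGCAtgatttgtgaagg
blu-miR7-5p: tCCTTCATaaatcgtgcacca
blu-miR6-5p: tGCGCGAGttgcggcggaccg
blu-miR6-3p: gTCCGCCAcaactcgcgcatg
blu-miR14-3p: tTTGCAGAcgcacttgaatcg
blu-miR14-5p: tTTAAGTCcgtctgcaaatcc

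The most abundant hairpins of 24 nt were the next 3:
blu-miR13-5p: tCCTTTTTcatgctgacgtggcag
blu-miR13-3p: gCCATTTCaatgtgaaaaaggatt
blu-miR8-5p: aTTATATAtgtcaccctccatgtc
blu-miR8-3p: tAGACATGgaaggtgacttgtatc
blu-miR11-3p: aTGGACAAagatagatgaatttgg
blu-miR11-5p: aAATTCATccatctttgttcattt

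Further sequences are shown because they differed most between libraries or were read in 1 tissue only:
blu-miR40-5p: aGAAAAGAaaagggaaggatt
blu-miR34-3p: aTAGAGATggacaagtagcattgt
blu-miR36-5p: aTTGATGTggcttttaaaattacc
blu-miR21-3p: aATCTAATgatgattttcactgcc
blu-miR32-3p: aCTGGCGAtaaggtttcc
blu-miR33-3p: cTGAGAACaagacaatgact
blu-miR12-3p of TRINITY_DN28168_c0_g5: tATGGAGTctctcatattgcc
blu-miR12-3p of TRINITY_DN27920_c0_g1: tGATGACGagagagagagaga
The name blu-miR12-3p stands for 2 unrelated sequences, which are told apart below by their transcript.

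The label was checked against the deposited columns. All 59 sequences were marked as new, all were in the table's group gp4, and 0 of them matched a known precursor. None came within 2 differences of a named sequence, and the closest was blu-miR17-5p with 3 differences from miR167d-3p. The sequences were placed by the authors on assembled transcripts, whose identifiers begin with TRINITY, and not on a genome. Chromosome, exon and intron are therefore not given here, and no gene name is attached to these transcripts.

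The predicted miRNAs were mostly longer than the named ones and mostly began with A. Of the 59, 36 were 24 nt long, 19 were 21 nt, 3 were 20 nt and 1 was 18 nt, and none was 22 nt. Among the 156 named sequences, 88 were 21 nt, 26 were 22 nt and 1 was 24 nt. A started 30 of the 36 sequences of 24 nt, T started 4 and G started 2. T started 13 of the 19 predicted sequences of 21 nt, whereas A, C and G started 2 each. The named sequences of 21 nt started with T in 45 cases and with A in 22. The 5p and 3p arms were about equally listed, with 19 against 17 for 24 nt and 9 against 10 for 21 nt.

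**Figure D1:**
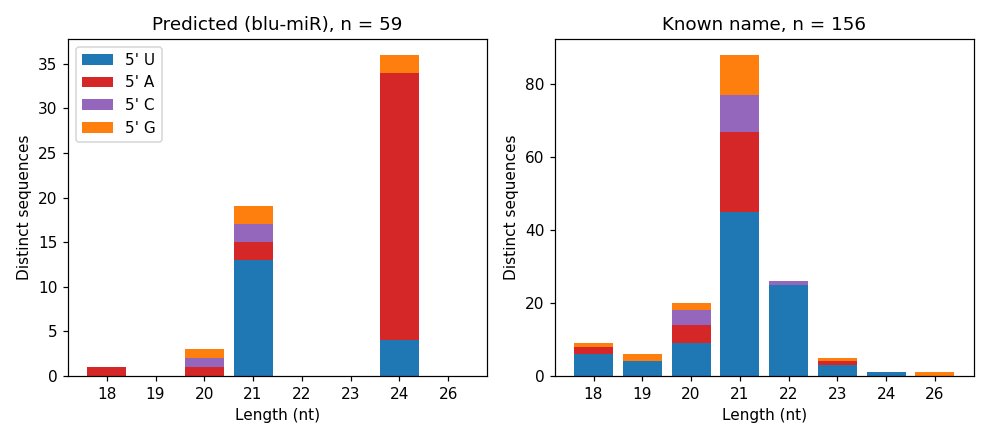
Number of distinct sequences (y axis) by length in nt (x axis) and by 5′ base (colours; U stands for the T of the table) for the 59 predicted and the 156 named sequences. The predicted set peaks at 24 nt with 36 sequences, 30 of them starting with A, and the named set peaks at 21 nt with 88. Lengths with no sequence in either set are not drawn.

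Counted by reads rather than by sequences, the 21-nt class prevailed instead, and 1 hairpin held most of its reads. The table held 308667 reads in CK root, 101816 in LP root, 1015833 in CK shoot and 723599 in LP shoot, so LP root is the shallowest library and 1 of its reads weighs the most. The predicted sequences took 14.6% of table reads in CK root (exact Clopper-Pearson 95% interval 14.4 to 14.7), 18.6% in LP root (18.3 to 18.8), 16.5% in CK shoot (16.4 to 16.5) and 17.9% in LP shoot (17.85 to 18.03). Most of this was blu-miR7-3p, with 85.4% of the predicted reads in CK root, 90.5% in LP root, 93.6% in CK shoot and 94.1% in LP shoot. Without it the share of table reads was 2.12%, 1.76%, 1.05% and 1.07% in the same order. Sequences of 24 nt gave 0.886% of the predicted reads in CK root, 0.529% in LP root, 0.752% in CK shoot and 1.16% in LP shoot. With blu-miR7-3p left out, those shares were 6.08%, 5.58%, 11.8% and 19.5%.

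Levels are given as the deposited normalized values, which are the reads multiplied by 1 constant per library, namely 1.02 in CK root, 2.73 in LP root, 0.517 in CK shoot and 0.780 in LP shoot. A normalized level of 100 or more in any library was reached by 11 of the 59 predicted sequences, 6 of them 21 nt and 5 of them 24 nt, and by 82 of the 156 named ones. A further 23 predicted sequences peaked between 10 and 100, and 25 stayed under 10. The highest value of blu-miR36-5p, the next below those 11, was 49.5.

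**Figure D2:**
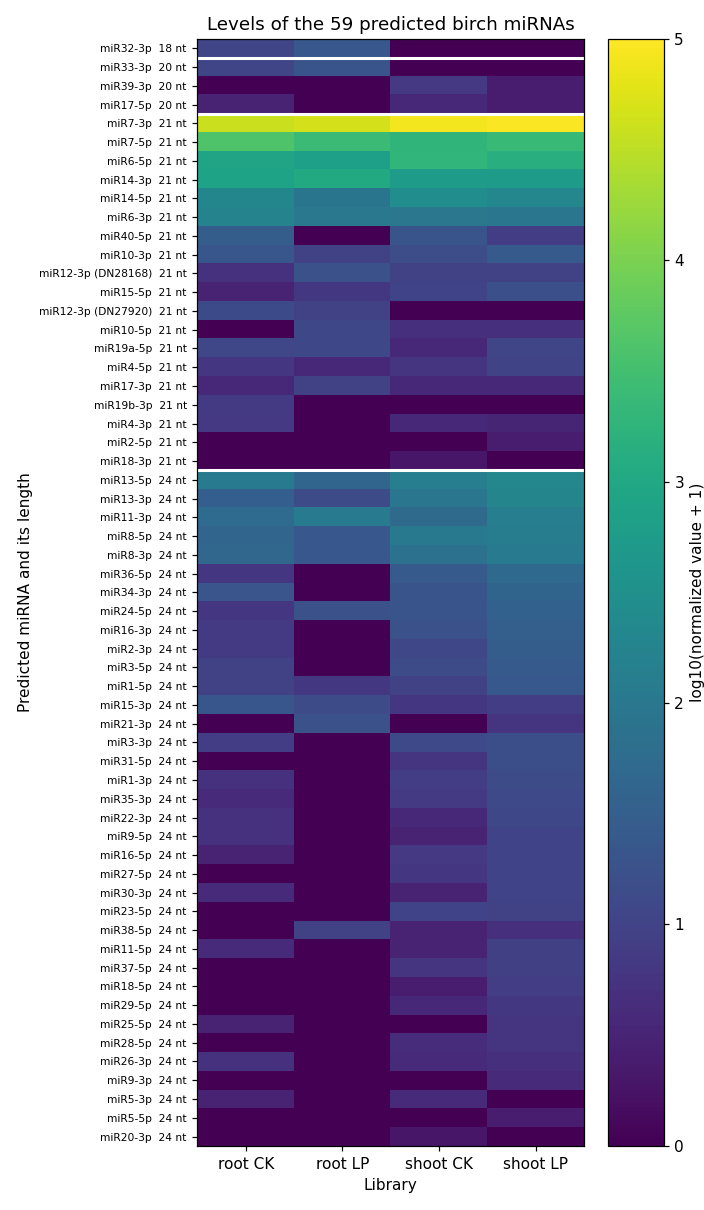
Level of each of the 59 predicted miRNAs (rows, ordered by length and then by highest level) in the 4 libraries (columns). Colour gives log10(normalized value + 1), and the darkest colour is 0. The 6 strands of 21 nt at the head of their group and the 5 of 24 nt at the head of theirs stand above the rest, and dark cells are most frequent in LP root, where 33 of the 59 were at 0.

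The hairpin blu-miR7 stood far above the others. Its 3p strand had a normalized value of 39205 in CK root, 46675 in LP root, 80894 in CK shoot and 95266 in LP shoot. Both shoot libraries lay above both root libraries. Its 5p strand had 4162, 2551, 1854 and 2474 in the same order, so its highest library was CK root. The 3p strand was thus 2.06-fold lower in CK root than in CK shoot (counting interval 2.04 to 2.09), while the 5p strand was 2.24-fold higher there (2.15 to 2.35). Under LP the 3p strand was 2.04-fold lower in the root (2.01 to 2.07), and the 5p strand was at 1.03 times its shoot level (0.957 to 1.11). Scaled to the total of the table, the tissue difference of the 3p strand shrank to a log2 ratio of -0.31 under CK and -0.01 under LP.

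The listed precursor of blu-miR7, 236 nt on the plus strand of TRINITY_DN25985_c1_g5 at positions 72 to 307, is printed with its 5p and 3p strands in capitals.
blu-miR7 precursor: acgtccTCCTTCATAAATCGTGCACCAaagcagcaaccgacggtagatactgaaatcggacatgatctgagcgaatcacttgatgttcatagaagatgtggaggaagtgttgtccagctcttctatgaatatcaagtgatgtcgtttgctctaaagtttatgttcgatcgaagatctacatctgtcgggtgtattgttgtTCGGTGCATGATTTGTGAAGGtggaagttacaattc

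The other abundant hairpins of 21 nt were blu-miR6 and blu-miR14. The strand blu-miR6-5p had 838 in CK root, 662 in LP root, 1977 in CK shoot and 1423 in LP shoot, and blu-miR6-3p had 171, 101, 93.8 and 91.3. The 5p strand was higher in both shoot libraries and the 3p strand in both root libraries. Under LP, however, the 3p strand in the root was at 1.11 times its shoot level (0.743 to 1.61), an interval that includes equality. Scaled to the table total, the log2 ratio of root to shoot of the 5p strand shrank to -0.50 under CK and -0.08 under LP. The strand blu-miR14-3p had 789 in CK root, 1106 in LP root, 562 in CK shoot and 558 in LP shoot. Its partner blu-miR14-5p had 200.3, 87.3, 276 and 207, with LP root the lowest of the 4.

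Among sequences of 24 nt, the levels were highest for blu-miR13, blu-miR11-3p and blu-miR8. The strand blu-miR13-5p had 119 in CK root, 40.9 in LP root, 135 in CK shoot and 203 in LP shoot. Its partner blu-miR13-3p had 30.7, 13.6, 90.4 and 187. For both strands LP root was lowest and LP shoot highest. The strand blu-miR8-5p had 41.9, 21.8, 102 and 132 in the same order, and blu-miR8-3p had 42.9, 21.8, 71.0 and 111, again with LP root lowest and LP shoot highest. By contrast blu-miR11-3p had 54.7 in CK root, 115 in LP root, 53.7 in CK shoot and 134 in LP shoot, so that both LP libraries lay above both CK libraries.

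Below these, 14 further sequences of 24 nt reached a normalized value of 10 in 1 library, and most had their highest value in LP shoot. Values are given in the order CK root, LP root, CK shoot, LP shoot. The sequence blu-miR36-5p had 5.11, 0, 25.1 and 49.5. The sequence blu-miR34-3p had 19.4, 0, 18.6 and 40.6, and blu-miR24-5p had 5.11, 16.4, 19.1 and 34.3. All 3 were highest in LP shoot, and of them blu-miR24-5p alone was read in LP root. The arms of blu-miR3 had 8.17, 0, 13.2 and 25.0 (5p) and 7.15, 0, 11.6 and 14.8 (3p). The sequence blu-miR22-3p had 4.09, 0, 2.58 and 11.3, and blu-miR31-5p had 0, 0, 4.65 and 14.8. These too were at 0 in LP root. Higher in roots than in shoots was blu-miR15-3p, with 20.4, 13.6, 5.17 and 7.02, whereas the 21-nt blu-miR15-5p had 2.04, 5.46, 9.30 and 15.6. The sequence blu-miR21-3p had 0, 16.4, 0 and 4.68 and was thus read under LP only, from 6 reads in each LP library.

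The remaining hairpins with both arms were weakly read. The strand blu-miR10-3p had 20.4, 8.19, 14.0 and 25.0, and blu-miR10-5p had 0, 10.9, 3.62 and 3.90. In LP root this was 3 against 4 reads, so the 5p arm was not below the 3p arm there as it was elsewhere. The strand blu-miR19a-5p had 10.7, 10.9, 2.58 and 10.1, and blu-miR19b-3p had 6.13, 0, 0 and 0. The strand blu-miR4-5p had 5.11, 2.73, 4.91 and 9.75, and blu-miR4-3p had 5.62, 0, 2.58 and 2.34. The arms of blu-miR17 stayed between 0 and 8.19, those of blu-miR9 between 0 and 9.36, those of blu-miR5 between 0 and 3.10 and those of blu-miR18 between 0 and 7.02. At this depth 1 read in LP root is worth 2.73, so these values rest on few reads.

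All 59 sequences fell on 36 transcripts, each with 1 locus. The precursors of members of 24 nt were poorer in G and C, with a median of 30.5% against 41.2% for 21 nt and 45.5% for named sequences with a listed precursor. The folding index of the table (MFEI, folding energy corrected for length and GC content) had a median of 1.15 for 24 nt, 1.2 for 21 nt and 0.8 for the named ones. The median predicted precursor was 163 nt long, and that of the named sequences 109 nt.

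On 5 of the 36 loci the table listed predicted miRNAs on both strands of the same transcript. These 5 loci held 16 members, 14 of them 24 nt long. At these loci the deposited positions of the minus-strand precursors did not line up with their sequence when read along the plus strand, so they were placed on the plus strand by matching their reverse complement to the plus-strand precursor. All overlapping bases then matched, over 184 nt for blu-miR1 and blu-miR2, 141 nt for blu-miR16 with blu-miR35 and blu-miR37, 183 nt for the strands named blu-miR15, 169 nt for blu-miR9 and blu-miR20 and 142 nt for blu-miR3 and blu-miR36. The opposite-strand sequences lay over each other, within 3 nt of the same start at 4 of the loci, while blu-miR15-3p at 782 to 805 and blu-miR15-5p at 771 to 791 overlapped in part. Although they share a name, the strands called blu-miR15 come from opposite strands and are not the arms of 1 listed hairpin.

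**Figure D3:**
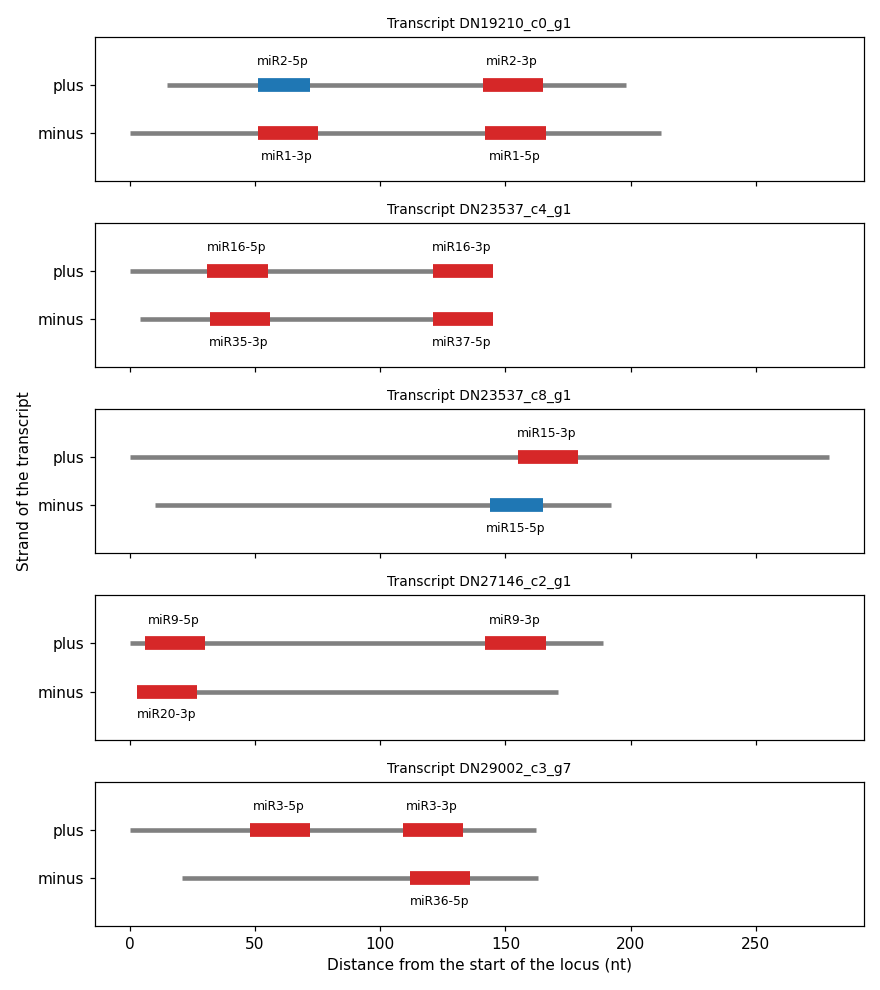
The 5 loci with predicted miRNAs on both strands, as distance in nt from the start of the locus (x axis) on the plus and minus strand of the transcript. Grey lines are listed precursors, red boxes mature sequences of 24 nt and blue boxes those of 21 nt. Each sequence on the minus strand overlaps a sequence of the plus strand, as blu-miR37-5p does under blu-miR16-3p.

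Exact reverse complements were found in 4 pairs, and their matched bases are shown in capitals:
blu-miR1-3p: agaGACACATGGCACTTTTATAGA
blu-miR2-5p: TCTATAAAAGTGCCATGTGTC
blu-miR1-5p: aTCTATAAAAGTGTCATGTGTCCC
blu-miR2-3p: aGGGACACATGACACTTTTATAGA
blu-miR16-3p: AACCCAATATTAATAGATGACACT
blu-miR37-5p: AGTGTCATCTATTAATATTGGGTT
blu-miR16-5p: aAGTGTCATCTATTAACATTGAGT
blu-miR35-3p: aACTCAATGTTAATAGATGACACT
The match spanned 21 nt for blu-miR1-3p with blu-miR2-5p, 23 nt for blu-miR1-5p with blu-miR2-3p, 24 nt for blu-miR16-3p with blu-miR37-5p and 23 nt for blu-miR16-5p with blu-miR35-3p. The 2 overlapping pairs at the loci of blu-miR3 and blu-miR9 differed from exact complements by 1 base each over 21 nt. Likeness also crossed transcripts: blu-miR19a-5p, listed on TRINITY_DN23989_c0_g2, differed by 1 base over 21 nt from blu-miR1-5p.

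At these loci both strands were read at low levels. The pair blu-miR16-3p and blu-miR37-5p had normalized values of 6.13 and 0 in CK root, 0 and 0 in LP root, 16.3 and 4.65 in CK shoot, and 31.2 and 7.80 in LP shoot. The pair blu-miR1-5p and blu-miR2-3p had 8.69 and 6.13 in CK root, 5.46 and 0 in LP root, 8.27 and 10.9 in CK shoot, and 22.6 and 29.3 in LP shoot. In both pairs LP shoot was the highest library for each strand. The pair blu-miR16-5p and blu-miR35-3p had 2.04 and 3.07 in CK root, 0 and 0 in LP root, 5.68 and 5.94 in CK shoot, and 9.36 and 11.7 in LP shoot. The pair blu-miR1-3p and blu-miR2-5p had 4.09 and 0 in CK root, 0 and 0 in LP root, 7.23 and 0 in CK shoot, and 13.3 and 1.56 in LP shoot. Of these 8 sequences blu-miR1-5p alone was read in LP root, with 2 reads.

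The mature sequence did not always match its own listed precursor. It differed by 1 base in 27 of the 59 members and by more than that in 0, and the differing members were 21 of the 36 of 24 nt and 4 of the 19 of 21 nt. Among 79 named sequences with a listed precursor, 33 differed by 1 base. Of the 27 differences, 16 were transitions and 11 transversions. Only 2 of the 27 mature sequences, blu-miR17-5p and blu-miR17-3p, were found without a difference on either strand of any of the 103 distinct precursors listed in the table. Both matched the opposite strand of their own precursor, blu-miR17-3p at its 5p arm and blu-miR17-5p at its 3p arm. Of the 27, 6 belonged to the exact reverse-complement pairs above, where the same difference was counted from each strand.

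In 5 of 18 hairpins with both arms listed, both arms differed, and in blu-miR1 and blu-miR2 the differing bases faced each other in the deposited fold. Substitutions are written with the precursor base, the position counted from 1 at the 5′ end of the mature sequence, and the mature base. They were T11G in blu-miR1-5p with A15C in blu-miR1-3p, and T10G in blu-miR2-5p with A15C in blu-miR2-3p, so that a T-A pair of the precursor was a G-C pair of the mature strands. As blu-miR1 and blu-miR2 lie on opposite strands of 1 locus, these are the same base differences read from each strand and not separate cases. The mature and the precursor form of blu-miR1 are printed with that base in capitals.
blu-miR1-5p, mature: atctataaaaGtgtcatgtgtccc
blu-miR1-5p, precursor: atctataaaaTtgtcatgtgtccc
blu-miR1-3p, mature: agagacacatggcaCttttataga
blu-miR1-3p, precursor: agagacacatggcaAttttataga

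The 18 hairpins listed with both arms held 36 of the 59 members. In 6 both arms were 21 nt, in 9 both were 24 nt, and 3 were mixed. Dicer-like cuts typically leave 3′ ends that stand out by 2 nt on both sides of the duplex. In the authors' fold this was so on both arms of 5 hairpins, blu-miR6, blu-miR10, blu-miR11, blu-miR13 and blu-miR19, and on neither arm of the other 13. Among 17 named hairpins with both arms, 7 had it on both arms, and 13 on at least 1 arm. The precursor of blu-miR6, 100 nt on the plus strand of TRINITY_DN23693_c1_g1, is an example with both overhangs, its arms being in capitals.
blu-miR6 precursor: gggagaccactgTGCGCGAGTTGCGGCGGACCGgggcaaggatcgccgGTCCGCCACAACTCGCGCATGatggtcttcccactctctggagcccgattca

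Of the 18 hairpins, 5 had at least 20 reads in every library, and in all 5 (blu-miR6, blu-miR7, blu-miR11, blu-miR13 and blu-miR14) the arm with more reads was the same in the 4 libraries. For blu-miR13 in LP shoot the arms were near parity. In blu-miR8, with 16 reads in LP root, the 5p arm had more reads in both shoot libraries, 198 against 137.5 and 169 against 142.5, but not in the root libraries, at 41 against 42 and 8 against 8. The same arm prevailed in every library in 14 of 15 named hairpins with as many reads. An arm share compares 2 strands of 1 library and does not depend on the scaling between libraries.

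The share of the minor arm nevertheless differed between libraries. The 5p arm of blu-miR7 made up 9.60% of the hairpin's reads in CK root (exact 95% interval 9.32 to 9.88), 5.18% in LP root (4.86 to 5.51), 2.24% in CK shoot (2.17 to 2.31) and 2.53% in LP shoot (2.44 to 2.62). No 2 of these intervals overlapped, and both root shares lay above both shoot shares. The 3p arm of blu-miR6 showed the same order of tissues, with 17.0% (14.7 to 19.5), 13.2% (9.48 to 17.8), 4.53% (3.92 to 5.23) and 6.03% (5.01 to 7.18). Here the intervals of the 2 root libraries overlapped, and so did those of the 2 shoot libraries.

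In blu-miR14 and blu-miR13 the minor arm took more reads in the shoot. The 5p arm of blu-miR14 gave 20.2% in CK root (17.8 to 22.9), 7.32% in LP root (5.06 to 10.2), 32.9% in CK shoot (30.7 to 35.3) and 27.0% in LP shoot (24.3 to 29.9), and no intervals overlapped. The 3p arm of blu-miR13 gave 20.5% (14.3 to 28.02), 25.0% (8.66 to 49.1), 40.0% (35.4 to 44.8) and 48.0% (43.5 to 52.5). Only 20 reads of this hairpin lay in LP root, whose interval overlapped all others. In blu-miR8 the 3p arm had 50.6% (39.4 to 61.8), 50% (24.7 to 75.3), 41.0% (35.8 to 46.5) and 45.7% (39.9 to 51.2), so the interval excluded equal arms in CK shoot alone, and in blu-miR11 the 5p arm had 5.31%, 0%, 3.70% and 5.51%.

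**Figure D4:**
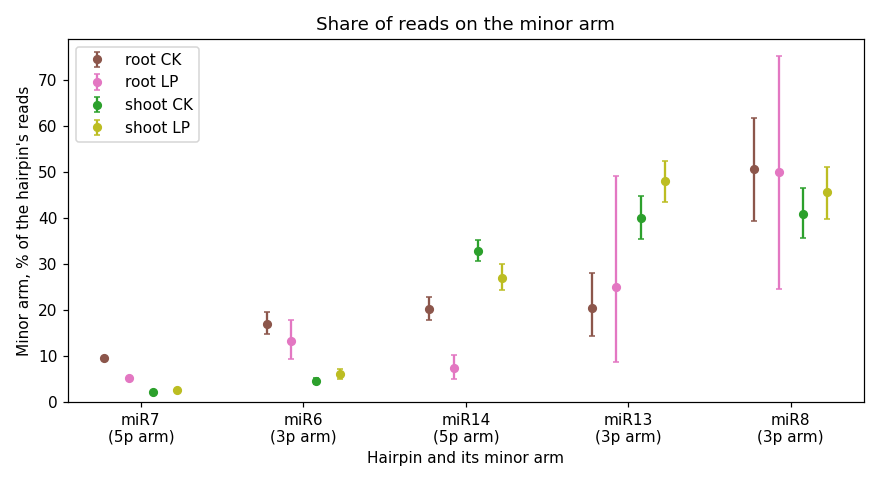
Share of the hairpin's reads on the minor arm (y axis, %) for the 5 hairpins with the most reads on their minor arm, in the 4 libraries (colours). Bars are exact 95% binomial intervals of the reads. For blu-miR7 and blu-miR6 the root libraries lie above the shoot libraries, and for blu-miR14 and blu-miR13 the shoot libraries above CK root.

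Of the 5 hairpins with at least 20 reads in each root library, 4 had a lower minor share in LP root than in CK root, with intervals apart for 2 of them, blu-miR7 and blu-miR14. Among 15 named hairpins with as many reads, 9 were lower, 5 with intervals apart, and 6 were higher, 2 with intervals apart. In shoots, 6 of 12 predicted hairpins had a lower and 6 a higher minor share under LP.

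For levels between libraries, ratios were taken as log2 of normalized values plus 1, for sequences that reached a normalized value of 10 in either library, and a sequence was called where the ratio reached 2-fold. In roots under LP against CK, 23 of the 59 predicted sequences entered. Of these 6 were called higher, or 26.1%, beside 23.8% of all 143 sequences that entered, and 6 were called lower, beside 18.2% of all. The share of higher calls is near that background. The minimum favoured the direction of 4 of the 6 higher calls, which entered through LP root alone. It likewise favoured 3 of the 6 lower calls, which entered through CK root alone. The median log2 ratio was -0.53 for the predicted sequences and 0.07 over all.

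The calls in roots rested on few reads. The counting interval excluded equality for 3 of the 6 higher and 4 of the 6 lower calls. The sequence blu-miR40-5p had 28 reads in CK root and 0 in LP root. With a floor of 3 reads in LP root it was 3.49-fold lower (counting interval from 2.66). With the same floor blu-miR34-3p, at 19 reads against 0, was 2.37-fold lower (from 1.75). In the other direction blu-miR21-3p had 0 reads in CK root and 6 in LP root and was 5.34-fold higher (from 3.15). For blu-miR10-5p, with 0 and 4 reads, the fold with the floor was 3.56 (from 1.76). The floor leaves out the counting error of the other library, so these folds are not lower bounds.

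Better read were the abundant hairpins. In LP root blu-miR13-5p was 2.89-fold lower (1.68 to 5.34), blu-miR14-5p 2.29-fold lower (1.57 to 3.44) and blu-miR11-3p 2.10-fold higher (1.35 to 3.17). The call of blu-miR11-3p was lost with median-of-ratios scaling, at a log2 ratio of 0.95. For blu-miR13-3p, at 30 against 5 reads, the fold of 2.25 had an interval of 0.863 to 7.41 and was lost with scaling to the table total, at -0.95. The remaining calls were blu-miR10-3p, lower at 20 against 3 reads (2.50-fold, 0.740 to 13.1), and 3 higher ones. These were blu-miR24-5p (3.21-fold, 0.815 to 13.3), the blu-miR12-3p of TRINITY_DN28168_c0_g5 (4.01-fold, 0.9503 to 19.3) and blu-miR32-3p (2.14-fold, 0.733 to 6.01), whose call 2 other scalings took away.

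In shoots under LP against CK, 27 predicted sequences entered. Of these 8 were called higher, or 29.6%, beside 17.1% of all 140 sequences, and 1 was called lower, or 3.70%, beside 27.9% of all. Their median log2 ratio was 0.80, whereas that of all sequences was -0.23. The intervals of all 9 called folds excluded equality. The minimum favoured the direction of 4 of the 8 higher calls, which entered through LP shoot alone. It likewise favoured the 1 lower call, which entered through CK shoot alone. All 17 members of 24 nt that entered had a ratio above 0, beside 60 of all 140 sequences. The median of the 17 was 0.90, and 7 were called. Some of the 17 share a locus, such as blu-miR1-3p, blu-miR1-5p and blu-miR2-3p, or the arms of blu-miR8 and of blu-miR13. The 17 are therefore not independent. The minimum favoured a ratio above 0 for 5 of the 17, 3 of them called, which entered through LP shoot alone. Over all 36 members of 24 nt with no minimum, 33 had a ratio above 0 and 3 below, namely blu-miR5-3p, blu-miR20-3p and blu-miR23-5p. With a minimum of 10 on the mean of the 4 libraries, chosen after seeing the data, 13 entered and all 13 lay above 0. Of the 10 members of 21 nt, 5 lay above and 5 below 0.

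The higher calls in shoots were led by blu-miR22-3p at 4.38-fold (1.44 to 14.998), blu-miR19a-5p at 3.93-fold (1.31 to 14.1) and blu-miR31-5p at 3.19-fold (1.37 to 8), each with 5 to 19 reads per library. The overlapping strands blu-miR1-5p and blu-miR2-3p were 2.74-fold (1.44 to 5.39) and 2.70-fold (1.56 to 4.90) higher. Of the better read sequences, blu-miR11-3p was 2.49-fold higher (1.95 to 3.22), blu-miR34-3p 2.18-fold (1.40 to 3.43) and blu-miR13-3p 2.07-fold (1.70 to 2.53). The lower call was blu-miR40-5p, at 36 against 9 reads, or 2.65-fold lower (1.25 to 6.25). Of the 8 higher calls 4 held under every scaling tried, namely blu-miR1-5p, blu-miR2-3p, blu-miR11-3p and blu-miR31-5p. The call of blu-miR40-5p was lost with TMM scaling.

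**Figure D5:**
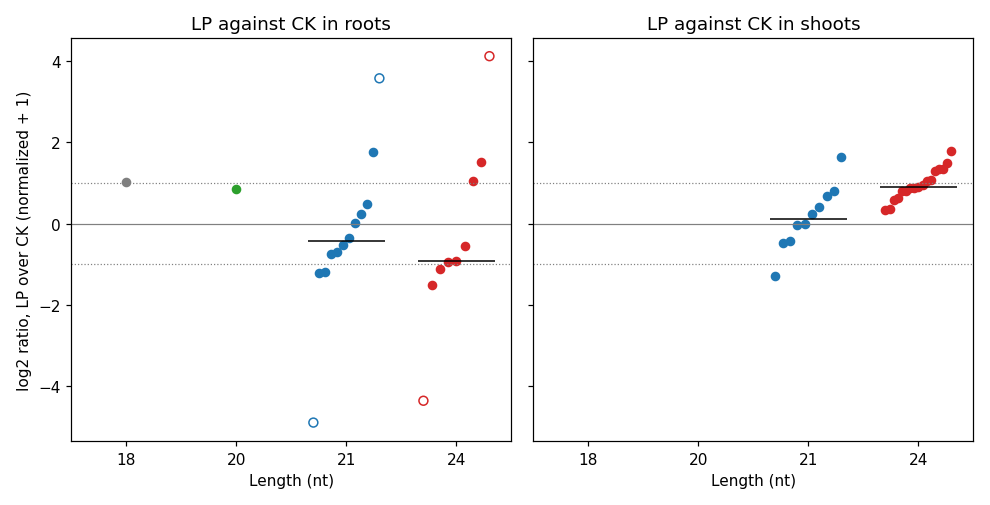
Log2 ratio of LP over CK (normalized value + 1, y axis) by length in nt (x axis) in roots (left) and shoots (right) for predicted miRNAs that reached a value of 10 in either library. Each point is 1 sequence, an open circle is at 0 in 1 library, black bars are medians and dotted lines mark 2-fold. In shoots all 17 points of 24 nt lie above 0, and in roots 3 of 9 do. Points from the same locus are not independent.

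Summed over all 36 sequences of 24 nt, the normalized level was 407 in CK root, 273 in LP root, 649 in CK shoot and 1173 in LP shoot, from 398, 100, 1256.5 and 1503 reads. In shoots the sum was 1.81-fold higher under LP (1.68 to 1.95), and in roots it was 1.49-fold lower (1.19 to 1.87). The root value rests in part on 1 sequence: without blu-miR11-3p the sum in roots was 2.22-fold lower under LP (1.68 to 2.99). The sum of the 21-nt sequences without blu-miR7-3p was 1.37-fold lower in roots (1.30 to 1.44) and at 1.00 times its CK level in shoots (0.970 to 1.03).

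The same class was the one most often absent from LP root. Of the 36 sequences of 24 nt, 24 were above 0 in CK root, 10 in LP root, 32 in CK shoot and 34 in LP shoot. LP root was the shallowest library, so the others were thinned to it. Thinned to its table total, an expected 20.3 sequences kept a read in CK root (SD of thinning 1.60), 22.1 in CK shoot (2.15) and 27.97 in LP shoot (1.93), against the 10 seen in LP root. Thinned by the authors' constants, the expected numbers were 21.1, 26.7 and 32.1. These numbers count 1 read as present, but only 1 of the 171 values above 0 of the predicted sequences was 1 read. All 10 sequences of 24 nt seen in LP root had at least 2 reads. With 2 reads required, thinning to the table total gave 14.4, 14.5 and 20.7 (SDs from 1.82 to 2.10), which lie nearer to the 10. By the authors' constants the numbers with 2 reads required were 15.5, 20.1 and 28.04. Reads in the deeper libraries can have placed a sequence on the list in the first place. The thinned numbers of those libraries can therefore be too high beside LP root, and the part of depth was not tested. Of all 59, 17 were read in every library but LP root, and 14 of these were 24 nt long. Of the 19 sequences of 21 nt, 14 were above 0 in LP root and 16 in each other library. Named sequences at 0 in LP root were not counted, so absence there is not shown to be particular to the predicted ones. The 26 sequences of 24 nt at 0 in LP root had at most 19 reads in CK root and a median of 2.5.

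Between roots and shoots under CK, 25 predicted sequences entered, of which 6 were called higher in the root, beside 26.1% of all 142, and 7 lower, beside 37.3% of all. Their median log2 ratio was -0.19, and -0.44 over all sequences. The higher calls were led by sequences with no read in either shoot library. The blu-miR12-3p of TRINITY_DN27920_c0_g1 had 12 reads in CK root. With the floor of 3 reads it was 7.91-fold higher than in CK shoot (counting interval from 5.49). With 10 reads each, blu-miR32-3p and blu-miR33-3p were 6.59-fold higher with the floor (from 4.43). The same 3 sequences were also read in LP root, with 3, 8 and 7 reads. The remaining higher calls were blu-miR15-3p (3.96-fold, 1.77 to 9.46), blu-miR19a-5p (4.15-fold, 1.23 to 14.7) and blu-miR7-5p.

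The 7 lower calls in CK root were blu-miR36-5p (4.90-fold, 1.94 to 15.6), blu-miR24-5p (3.74-fold, 1.47 to 12.2), blu-miR13-3p (2.95-fold, 1.99 to 4.50), blu-miR16-3p (2.65-fold, 1.11 to 7.89), blu-miR8-5p (2.44-fold, 1.74 to 3.51), blu-miR6-5p (2.36-fold, 2.19 to 2.55) and blu-miR7-3p. Of these, blu-miR36-5p and blu-miR24-5p kept their call under every scaling. All 6 higher calls kept theirs too, but the scalings could not test their ratios. All 3 scalings raise the log2 ratio of root to shoot here, by 0.73, 0.11 and 0.32. For the 3 higher calls with 0 reads in CK shoot, 0 also stays 0. The minimum favoured 5 of the 6 higher calls, which entered through CK root alone. It likewise favoured 3 of the 7 lower calls, blu-miR16-3p, blu-miR24-5p and blu-miR36-5p, which entered through CK shoot alone. The sum of the 24-nt sequences was 1.60-fold lower in CK root than in CK shoot (1.42 to 1.79), but this turned to 1.04 times the shoot level when libraries were scaled to the table total.

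Between roots and shoots under LP, of 32 predicted sequences that entered, 4 were called higher in the root, beside 34.2% of all 158, and 21 lower, or 65.6%, beside 37.3% of all. Scaled to the table total, 13 were higher and 11 lower. TMM scaling gave 4 higher and 26 lower, and median of ratios 5 higher and 19 lower. The balance thus depends on the scaling and was lost with the table total. All 4 higher calls entered through LP root alone, and 13 of the 21 lower calls entered through LP shoot alone. Of the 19 sequences of 24 nt, 16 were called lower and 1 higher, and 10 of the 19 were at 0 in LP root. Some of the 19 share a locus and are not independent. The minimum fixed the direction for 11 of the 16, which entered through LP shoot alone. The median log2 ratio of all 19 was -3.67, which becomes -1.499 with those at 0 set to the floor of 3 reads. The median over all sequences was -0.22. The intervals excluded equality for 17 of the 21 lower calls, and 11 of the 21 held under every scaling. For lower calls at 0 in LP root 0 stays 0, so a scaling could undo them only through the minimum.

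The log2 ratios farthest down were against 0 reads in LP root and depend on the added 1, so folds with the floor are given. With the floor of 3 reads, blu-miR36-5p was 6.05-fold lower in LP root than in LP shoot (counting interval from 4.82). With the same floor blu-miR34-3p was 4.95-fold lower (from 3.89) and blu-miR16-3p 3.81-fold (from 2.96). For blu-miR2-3p it was 3.57-fold (from 2.80) and for blu-miR3-5p 3.05-fold (from 2.34). With reads in both libraries, blu-miR13-3p was 13.7-fold lower in LP root (5.80 to 42.6), blu-miR8-5p 6.04-fold (2.995 to 14.2), blu-miR8-3p 5.09-fold (2.51 to 12.0) and blu-miR13-5p 4.95-fold (2.95 to 8.98). The sum of the 24-nt sequences was 4.30-fold lower in LP root than in LP shoot (3.51 to 5.31). Scaled to the table total it was 0.473 times the LP shoot level, and without blu-miR11-3p it was 6.56-fold lower (5.05 to 8.69). Higher in the root with the floor were blu-miR32-3p, at 9.33-fold (from 5.97), and blu-miR33-3p, at 8.16-fold (from 5.04). Also higher were blu-miR21-3p and blu-miR10-5p at 6 and 4 reads, whose intervals included equality.

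The 2 comparisons within roots and within shoots use separate libraries. Called in both were blu-miR11-3p, higher under LP in each tissue, and blu-miR40-5p, lower under LP in each. Called in opposite directions were blu-miR13-3p and blu-miR34-3p. The comparisons between tissues reuse the same 4 libraries, so their values are not independent of these.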

How the data were processed

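Small RNAs were sequenced in 4 libraries, 1 each of CK root, LP root, CK shoot and LP shoot. The deposited table gives estimated counts per mature sequence (22 of the 59 predicted sequences have a fractional value) and a normalized signal, which per the file headers and the values is the count times 1 constant per library. It also holds, per the file headers, precursor GC content in percent and a folding score (MFEI). Read trimming, mapping, prediction of precursors, the build and the choice of the constants were not stated in any source used here. Of 221 rows, 6 repeats of a sequence were dropped.

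Ratios were computed as log2(normalized value + 1), and calls needed 2-fold and a value of 10 or more in either library. Plain folds carry exact conditional and shares carry Clopper-Pearson 95% intervals, from counts rounded to whole numbers. A library at 0 was set to a floor of 3 reads for folds given with the floor. Such folds leave out the counting error of the other library. Other scalings were the table total, TMM (edgeR 4.0.16 in R 4.3.3) and median of ratios. Python 3.11.15 with pandas 2.3.3, numpy 2.4.6, scipy 1.17.1 and matplotlib 3.10.9 was used. The calculation was tested on simulated data. With 1 library per group no count model was fitted and no p-value is given.

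Described with all values were members of at least 100 in 1 library, both arms of listed hairpins, 24-nt members of at least 10 and, per comparison, the 5 called members farthest up and down. The lowest hairpins are given by their range. Members and lists were chosen with earlier results of these data known.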

Additional observations from a re-analysis of the deposited data

Results flagged for a closer look

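Opposite responses to LP in the 2 tissues were seen for 2 predicted sequences of 24 nt, and the difference was not tested because each group is 1 library. The log2 ratio of LP to CK of blu-miR13-3p was -1.11 in roots, from 30 against 5 reads, and 1.04 in shoots, from 175 against 240 reads. Scaling to the table total brought both under the 2-fold limit, at -0.95 and 0.94. The log2 ratio of blu-miR34-3p was -4.35 in roots, from 19 against 0 reads, a value that depends on the added 1, and 1.08 in shoots, from 36 against 52 reads. Scaling to the table total brought the shoot value to 0.97. LP root is the library with the fewest reads, and its part in these differences was not tested.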

How the results depend on the processing

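Numbers of called members depended on the scaling, the filter and the fold. With scaling to the table total, 4 members were called higher in shoots under LP, 10 higher and 2 lower in CK root against CK shoot, and 13 higher and 11 lower in LP root against LP shoot. TMM scaling gave 21 higher and 0 lower in shoots under LP, and median of ratios 3 lower in CK root. These scalings shift every log2 ratio by 0.18, -0.05 and -0.11 in roots, -0.11, 0.39 and 0.16 in shoots, 0.73, 0.11 and 0.32 between tissues under CK, and 1.02, -0.33 and 0.05 under LP (table total, TMM, median of ratios). Adding 10 in place of 1 left 2 higher in roots, 1 higher and 0 lower in shoots, and 2 higher in LP root. Without a filter there were 24 lower in roots, 17 higher and 5 lower in shoots, 21 lower in CK root and 41 lower in LP root. With a minimum of 100 there were 1 higher and 2 lower in roots, 2 and 0 in shoots, 1 and 3 in CK root, and 0 and 7 in LP root. At 3-fold there were 3 higher and 2 lower in roots, 2 and 0 in shoots, and 2 lower in CK root. Members with whole reads only gave 3 higher in shoots, 3 lower in CK root and 10 lower in LP root.

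In the order CK root, LP root, CK shoot, LP shoot, the share of table reads was 0.322%, 0.202%, 0.260% and 0.296% with whole reads only, since blu-miR7-3p has fractional values, 14.4%, 18.1%, 16.3% and 17.8% with all rows as deposited, and 2.12%, 1.76%, 1.05% and 1.07% without blu-miR7-3p. The share of 24 nt was 6.08%, 5.58%, 11.8% and 19.5% without it and 55.8%, 38.5%, 64.0% and 65.4% of sequences above 0. Hairpins with more 5p than 3p reads numbered 6, 6, 9 and 10, and 2, 2, 5 and 5 at a minimum of 20 reads.

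The alternatives for the 24-nt sum and the thinning were chosen after seeing the data. In roots LP over CK was 0.671, 0.450 without blu-miR11-3p and 0.522 without blu-miR8, blu-miR11 and blu-miR13. In shoots it was 1.81, 2.37 with TMM, 2.02 with median of ratios and 2.05 without those 3 hairpins. Root over shoot under CK was 0.626, 0.784 with median of ratios, and it reversed to 1.04 with the table total. Under LP it was 0.233, and 0.473 with the table total, 0.185 with TMM, 0.152 without blu-miR11-3p and 0.151 without the 3 hairpins. The cause was not tested. Of 236 log2 values of called members under the 3 scalings and the other pseudocount, 208 stayed within their counting interval, 28 did not, and 0 changed direction. A change of direction was nearly out of reach, so the 0 is no check. Called ratios were at least 2-fold, and the largest shift by a scaling was 1.02 in log2. Another pseudocount cannot change a sign. Leaving out members near a named sequence changed nothing, as there were 0. No paired analysis was possible because each group has 1 library. Depth limits LP root most, where 1 read is worth 2.73 normalized units.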
